A study of Mus musculus with 2 samples.

Results

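The 3770 strongest open regions that lie far from promoters in the newborn mouse hindbrain are described here. They were taken from 136714 regions of open chromatin found in both of 2 libraries, of which 58757 lay more than 10 kb from every transcription start site of the GENCODE annotation. Members were chosen by the peak score: a region counted when its highest score was at least 98 in replicate 1 and at least 75 in replicate 2. Of the distal regions 6.42% passed both thresholds, against 45.0% of 29284 promoter regions (within 500 bp of a start site) and 15.9% of all regions of both libraries; since these are the scores the rule used, the shares are only a description. The 54987 other distal regions and the 13179 promoter regions past the same scores serve as the sets for comparison.

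DNase-seq maps open chromatin, because DNase I cuts where DNA is free of nucleosomes. Hindbrain, the part of the brain with the cerebellum, pons and medulla, came from healthy B6NCrl mice at postnatal age 0 days, a pool of male and female animals. The 2 biological replicates form 1 group, with no treatment, genotype or second tissue; the labels give them separate tissue entries and a single donor entry, so their spread may be technical. Replicate 1 held 271150 peaks and replicate 2 held 172002, with median scores of 45 and 38. Read depth per library is unknown, so no precision can be given for a single score, and with 1 group no test of a condition was possible. Shares carry exact binomial (Clopper-Pearson) 95% intervals, which cover counting error only and treat neighbouring regions as independent.

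Open regions far from promoters include enhancers, which bind transcription factors and raise the activity of genes at a distance, and insulators. Most insulators of vertebrates bind CTCF, a zinc finger protein that together with cohesin anchors chromatin loops. CTCF binds a long, well-kept motif in many tissues alike, while enhancers are mostly used in particular cell types. CpG islands are stretches rich in the dinucleotide CG that usually mark promoters, and the GC box there is bound by the SP and KLF families of zinc finger proteins.

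The sequences below show the kinds of DNA that recur among the strongest regions. Each is the 200 bp around the region's centre, taken from the plus strand of the GRCm38 (mm10) reference assembly. Here and below, a gene named as nearest is that of the nearest protein-coding start, and a non-coding start can lie closer. In the first 3, those of highest rank with an exact match to the CTCF core motif and outside annotated UTRs, capitals mark that match. All 3 cores point to the minus strand. The first lay at chr15:101984331-101984530, nearest to the start of the keratin gene Krt8, the second at chr2:170319271-170319470, nearest to Bcas1, a gene of the oligodendrocyte lineage, and the third at chr11:97400421-97400620, nearest to Arhgap23, which encodes a GTPase-activating protein.
Krt8 region: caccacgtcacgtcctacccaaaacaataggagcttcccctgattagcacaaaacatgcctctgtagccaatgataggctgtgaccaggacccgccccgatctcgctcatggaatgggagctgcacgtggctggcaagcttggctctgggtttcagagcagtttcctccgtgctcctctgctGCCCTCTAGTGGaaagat
Bcas1 region: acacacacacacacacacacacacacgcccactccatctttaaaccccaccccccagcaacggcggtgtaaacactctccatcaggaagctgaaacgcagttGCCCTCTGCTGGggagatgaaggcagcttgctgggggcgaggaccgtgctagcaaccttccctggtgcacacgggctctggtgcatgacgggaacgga
Arhgap23 region: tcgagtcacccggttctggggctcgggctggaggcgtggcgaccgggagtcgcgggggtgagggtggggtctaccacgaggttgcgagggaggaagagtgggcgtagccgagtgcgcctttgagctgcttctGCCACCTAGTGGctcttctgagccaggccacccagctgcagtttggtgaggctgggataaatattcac

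The next are those of highest rank of all, and none of them held the core. In the first 2, at chr1:86487471-86487670 (nearest to Ptma, which encodes prothymosin alpha) and at chr12:29291061-29291260 (nearest to the neuronal transcription factor gene Myt1l), capitals mark CG dinucleotides, of which the windows held 28 and 8. In the other, at chr2:92008371-92008570 in an intron of Creb3l1, a gene of a membrane-bound transcription factor, capitals mark 4 matches to the SP/KLF motif GGGCGG on the minus strand, and this window held 13 CG dinucleotides.
Ptma region: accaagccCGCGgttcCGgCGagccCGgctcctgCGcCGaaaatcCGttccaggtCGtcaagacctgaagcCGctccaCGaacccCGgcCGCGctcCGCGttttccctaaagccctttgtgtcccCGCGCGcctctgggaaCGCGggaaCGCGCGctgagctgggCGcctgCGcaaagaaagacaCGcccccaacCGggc
Myt1l region: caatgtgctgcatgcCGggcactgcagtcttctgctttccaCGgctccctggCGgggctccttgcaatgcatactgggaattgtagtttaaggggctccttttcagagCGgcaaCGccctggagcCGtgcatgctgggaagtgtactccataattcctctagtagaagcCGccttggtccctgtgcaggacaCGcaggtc
Creb3l1 region: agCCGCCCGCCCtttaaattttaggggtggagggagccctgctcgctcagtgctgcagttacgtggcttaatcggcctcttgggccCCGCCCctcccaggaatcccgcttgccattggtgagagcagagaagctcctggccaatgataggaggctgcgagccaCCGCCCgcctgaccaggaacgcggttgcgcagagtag

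The last 2 are the regions of highest rank with a homeobox motif (TAATTA, in capitals) and with a GATA motif (AGATAA, in capitals), which are shown because both motifs were scarcer in the strongest regions than in other distal regions. They lay at chr17:84096601-84096800, nearest to the start of Zfp36l2, an RNA-binding protein gene, and at chr3:21936021-21936220, nearest to Tbl1xr1, a gene of a corepressor subunit.
Zfp36l2 region: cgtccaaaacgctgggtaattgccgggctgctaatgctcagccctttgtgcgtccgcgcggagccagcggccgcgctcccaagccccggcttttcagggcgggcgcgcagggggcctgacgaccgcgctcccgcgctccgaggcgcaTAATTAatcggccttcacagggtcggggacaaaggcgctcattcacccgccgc
Tbl1xr1 region: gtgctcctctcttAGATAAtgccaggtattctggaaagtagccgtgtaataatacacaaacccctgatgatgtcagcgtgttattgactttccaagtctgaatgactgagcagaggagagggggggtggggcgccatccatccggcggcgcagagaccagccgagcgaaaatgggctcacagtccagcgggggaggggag

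The scores of the strongest distal regions ran from 98 to 148 in replicate 1, with a median of 108, and from 75 to 137 in replicate 2, with a median of 87. The other distal regions had medians of 56 and 37, and promoter regions past the same scores had medians of 131 and 112. The medians of the strongest distal regions were thus below those of the promoter regions, and the ranges overlapped. Replicate 1 gave the higher score in 3750 of the 3770 regions and replicate 2 in 15. Scores of different libraries are on a scale that is not stated, so only the order within a library was read. That order was alike in both libraries, with a Spearman rank correlation of 0.85 over the 54987 other distal regions and 0.58 over the 3770, whose range of scores is cut by the rule.

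**Figure D1:**
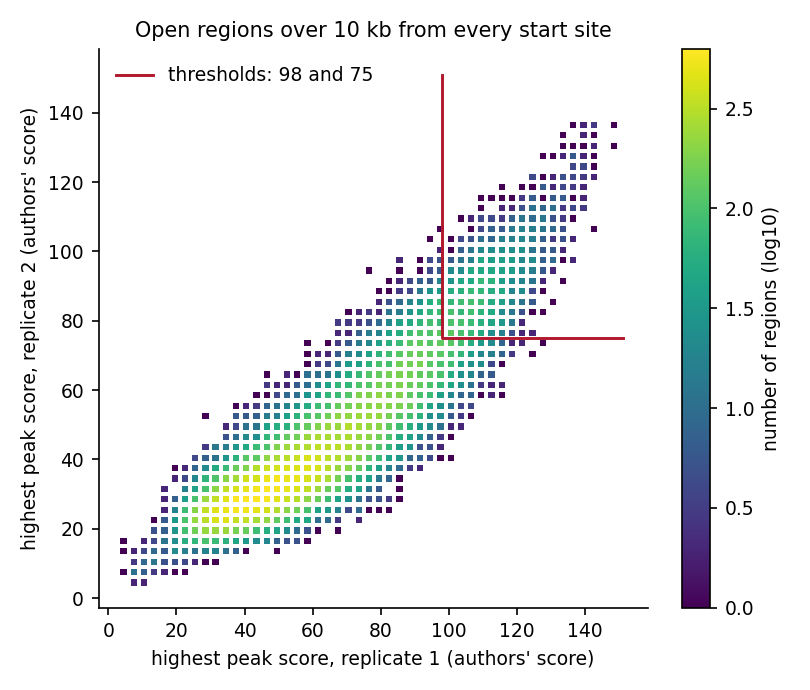
Highest peak score of replicate 2 against that of replicate 1 (both the authors' scores, no unit) for the 58757 distal regions, with the colour giving the number of regions in each square on a log10 scale. The red lines are the thresholds of 98 and 75: the 3770 chosen regions fill the upper right corner and continue the band of the other regions without a gap.

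The library not used for a choice shows how far a high score recurred among regions that have a peak in both, since regions with none in the other library had already been left out. Of 4980 such distal regions chosen on the replicate 1 score alone, 75.7% were at or above 75 in replicate 2, with a median there of 83 and a lowest value of 39. Among all distal regions 8.80% reached 75 and the median was 38. Of 5169 chosen on the replicate 2 score alone, 72.9% were at or above 98 in replicate 1, with a median of 105 and a lowest value of 66, against 8.48% and a median of 58 among all. The thresholds themselves cut through a continuum. Regions just inside and just outside the replicate 1 threshold (98 or 99 against 96 or 97) had a CTCF core in 17.0% of 282 and 16.6% of 284, and those around the replicate 2 threshold (75 or 76 against 73 or 74) in 9.96% of 271 and 9.30% of 258.

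Of the 27 motifs searched, the core of the CTCF motif had the largest difference in share, in percentage points, between the strongest and the other distal regions; by ratio it came after the far rarer NRF1 motif (3.56 against 3.89). An exact match within the 200 bp stood in 566 of the 3770, or 15.0% (interval 13.9 to 16.2), against 4.21% of the other distal regions (4.05 to 4.38) and 1.44% of the promoter regions past the same scores (1.25 to 1.66). With 1 mismatch allowed the shares were 39.4%, 14.5% and 7.03%. In flanks 1000 bp away and outside hotspots, the wider stretches of open chromatin that the authors called, the exact core was found beside 1 of 3101 of the strongest regions and 12 of 49055 of the others. The core was thus much rarer 1000 bp away than in the windows of the open regions; within a window it can lie beyond the edge of the peak, as in the Krt8 region shown above. A match is a description of the sequence and does not show that CTCF was bound.

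A search without a preset motif led to the same sequence. All words of 8 bases were read on both strands. Of the 20 with the largest excess in the strongest regions, 19 match the CTCF core along most or all of their length. AGGTGGCA stood in 7.24% of the strongest and 2.81% of the other distal regions, and AGGTGGCG in 4.93% and 1.09%. The other one of the 20 was CTGCTGCC, in 7.03% and 4.14%. At the opposite end were runs of A and T: AAAAAAAA stood in 2.12% of the strongest and 4.01% of the other regions, and AATTAAAA in 0.769% and 2.30%.

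The core lay near the middle of the regions. Of 571 cores in the strongest regions, 61.3% (57.2 to 65.3) were centred within 25 bp of the region's centre, where an even spread would place 27.0%, and the median offset was 21 bp. In the other distal regions 74.3% of 2321 cores (72.5 to 76.1) were as close, with a median of 15 bp, so cores were less tightly centred in the strongest regions. Both orientations were equally common, with 284 cores on the plus and 287 on the minus strand. Repeats, as masked in the reference, held 5.78% of the cores in the strongest regions and 6.08% of those in the others.

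**Figure D2:**
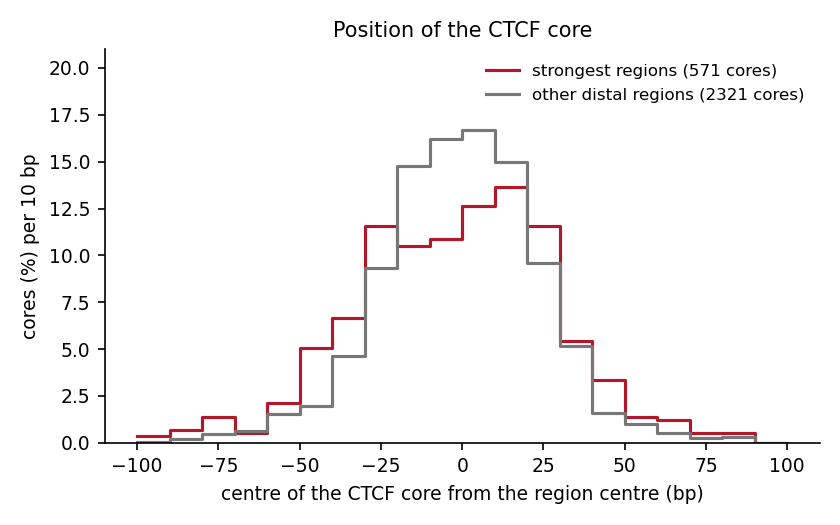
Distance of the centre of each CTCF core from the centre of its region (bp), as the percentage of cores per 10 bp, for 571 cores in the strongest and 2321 in the other distal regions. Both curves peak near 0, and the curve of the strongest regions is lower and wider, with 61.3% against 74.3% of cores within 25 bp.

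Base composition differed as well, so the core was compared at like GC content. The median GC content of the 200 bp was 53.0% in the strongest regions, 48.5% in the other distal regions and 65.5% in the promoter regions. In windows with 40 to 45% GC the core stood in 22.0% of the strongest regions (16.8 to 27.9) and 4.63% of the others, and at 60 to 65% GC in 6.51% (4.12 to 9.69) and 3.09% (2.20 to 4.19). The strongest regions had the higher share in each of the 5 bands of 5 percentage points from 40 to 65%, with intervals that just overlapped in the last. Within the strongest regions the core became scarcer as GC rose.

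The regions with a core also had a different shape. Hotspots around them had a median width of 433 bp in replicate 1 and 505 bp in replicate 2, against 621.5 bp and 636.5 bp around the 3204 regions without it. A hotspot under 500 bp in replicate 1 surrounded 61.1% of the regions with the core and 34.2% of those without, and one of at least 2000 bp surrounded 2 and 46. In each of 7 bands of replicate 1 score the median hotspot was narrower with the core, from 393 bp against 524.5 bp at scores of 98 to 102 to 743.5 bp against 1017 bp at 131 and above, where only 10 regions had it. The best peaks of both libraries stood at exactly the same position in 59.5% of the regions with the core (55.4 to 63.6) and 48.7% of those without (46.9 to 50.4). Regions with the core lay closer to a start site (median 19934 bp against 23897 bp), and their place in introns was alike, at 39.4% and 40.1%. Hotspot width comes from the same libraries as the scores and is given as a description.

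**Figure D3:**
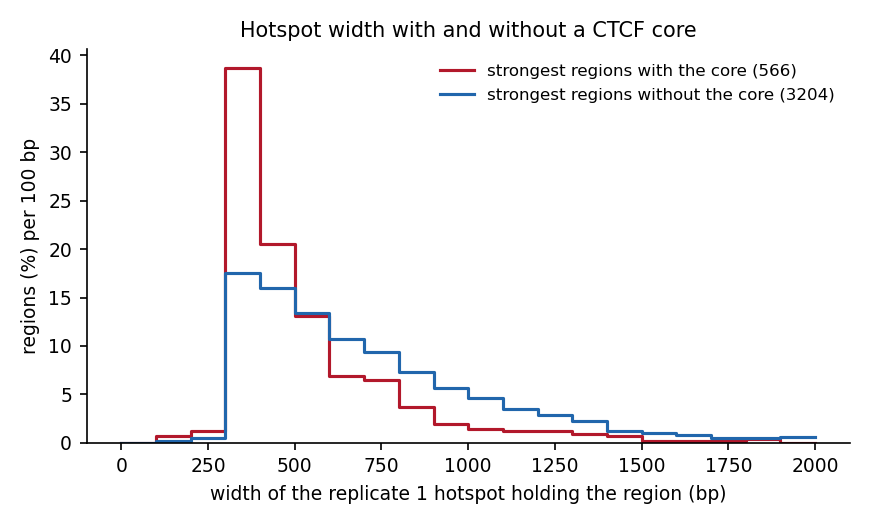
Width of the replicate 1 hotspot around each of the strongest distal regions (bp), as the percentage of regions per 100 bp, for 566 regions with and 3204 without the CTCF core. The curve with the core is concentrated below 500 bp, and 2 and 46 regions of the respective sets lie at 2000 bp or wider, of which those beyond the axis are not drawn.

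Across the whole range of distal regions the core became more common with the score, but it was scarcer at the top of the strongest. By deciles of the mean within-library score percentile of all 58757 distal regions, its share went from 0.834% in the lowest to 2.50% in the sixth and 15.2% in the highest. Within the strongest regions the order turned against the replicate 1 score. The core stood in 19.4% of 819 regions (16.8 to 22.3) with a replicate 1 score of 98 to 102, and in 5.31% of 245 (2.86 to 8.90) with 123 to 130 and 8.40% of 119 (4.10 to 14.9) with 131 and above. Against the replicate 2 score the share was highest in the middle, at 13.8% of 749 regions with 75 to 79, 17.8% of 754 with 85 to 89 and 8.24% of 170 with 110 and above. Each band holds only regions that also passed the threshold of the other library. The part of the rule in these courses was not tested.

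Within the strongest regions CpG-rich DNA took the opposite course and was most common at the top of the order. A window is called CpG-rich here when its observed number of CG dinucleotides is at least 0.6 of that expected from its C and G content, a usual criterion of CpG islands. Of the strongest distal regions 487 were CpG-rich, or 12.9% (11.9 to 14.0), against 5.37% of the other distal and 82.8% of the promoter regions. Among replicate 1 scores of 98 to 102 the share was 9.04%, and at 131 and above it was 49.6% (40.3 to 58.9), while the median GC content went from 50.5% to 62%. The SP/KLF motif followed, from 6.96% (5.31 to 8.92) to 49.6% (40.3 to 58.9). Not all of these windows are islands by composition, since 79.9% of the 487 had a GC content of at least 50%. Over the deciles of all distal regions CpG-rich windows became more common as the core did, from 3.61% in the lowest to 11.2% in the highest.

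**Figure D4:**
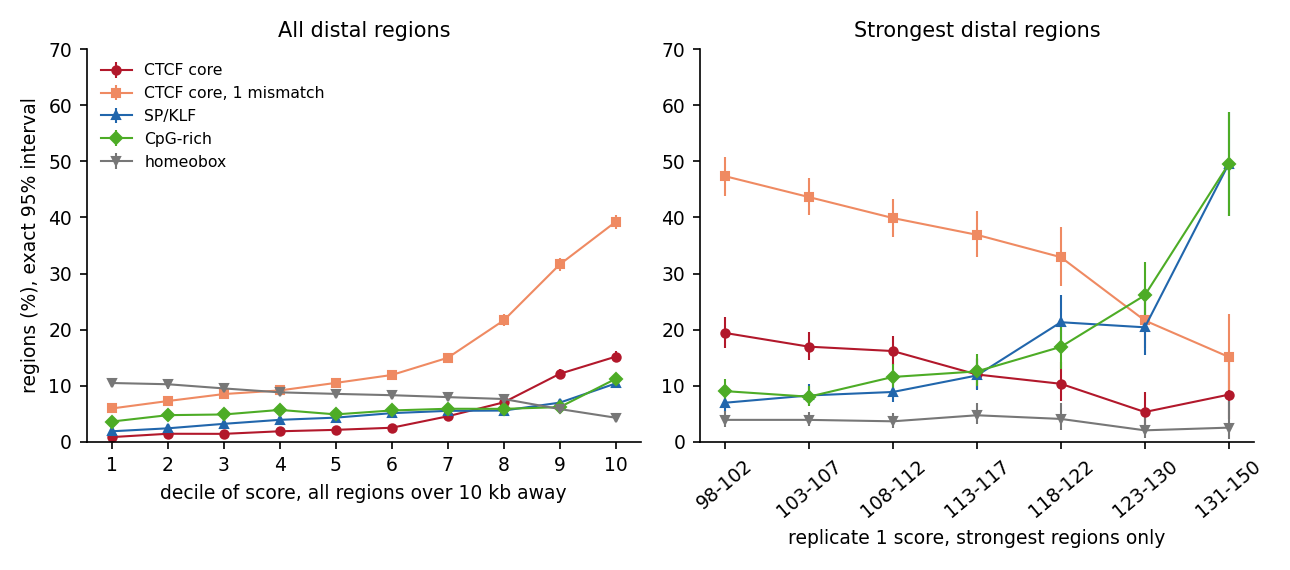
Share of regions (%) with the CTCF core, the core with 1 mismatch, the SP/KLF motif, CpG-rich sequence and the homeobox motif, by decile of score over all 58757 distal regions (left) and by band of replicate 1 score over the 3770 strongest (right), with exact 95% intervals as bars. The core goes from 0.834% to 15.2% over the deciles and is at 5.31% and 8.40% in the 2 highest bands, where CpG-rich sequence reaches 26.1% and then 49.6%; the SP/KLF point of the last band lies under it.

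CpG-rich regions also differed from the rest of the strongest regions in where they lay. Of the 487, 73.5% (69.4 to 77.4) were intergenic and 20.9% (17.4 to 24.8) in introns, against 53.9% and 42.9% of the other 3283. Their hotspots had a median width of 761 bp in replicate 1, against 569 bp, and 30.8% held the SP/KLF motif, against 9.02%. Start sites of the RefSeq annotation, which the rule did not use, lay within 500 bp of 12.9% (10.1 to 16.3) of them and of 3.35% (2.76 to 4.02) of the other strongest regions. The exact CTCF core and CpG-rich sequence together covered 1004 of the 3770 regions, or 26.6%. Of the 3204 regions without the exact core, 920 (28.7%) had it with 1 mismatch allowed.

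Some of the strongest regions thus lie at or close to start sites of another annotation. RefSeq places a start within 500 bp of 173 of the 3770 (4.59%, 3.94 to 5.31) and of 2.00% of the other distal regions (1.89 to 2.12). Most are predicted transcripts, and a curated one was within 500 bp of 25 (0.663%), none of them with the CTCF core. The examples that follow are among the highest-ranked of the 25 and were chosen after their values were seen. A region at chr9:32032236-32032385, with scores of 137 and 111, covers a curated start of Arhgap32, a GTPase-activating protein gene with synaptic functions, and had 81.5% GC. One at chr17:4908176-4908365, with scores of 138 and 129 and 82.5% GC, covers the start of the non-coding transcript Gm34507. One at chr4:8647436-8647585, with 136 and 122, covers that of the non-coding Gm8273, and the nearest protein-coding start belongs to the chromatin remodeller gene Chd7. These regions are promoter-like by annotation and were kept, since start sites were taken from the GENCODE annotation alone.

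Of the 27 motifs searched, 10 were more common in the strongest than in the other distal regions with intervals apart, 11 were less common with intervals apart, and 6 had overlapping intervals. Motifs were searched on both strands: NFI short site TTGGCA, E-box a CAGCTG, E-box b CACGTG, E-box c CAGATG, SOX ACAATG, long SOX AACAATGG, ZIC CAGCAGG, homeobox TAATTA, HOX-PBX TGATTNAT, MEIS TGACAG, POU ATGCAAAT, AP-1 TGANTCA, CRE TGACGTCA, NRF1 GCGCATGCG, YY1 AAGATGGC, EBF TCCCNNGGG, TEAD GGAATG, the GATA factor motif AGATAA, ETS CCGGAAGT, SP/KLF GGGCGG, and the nuclear receptor site AGGTCA. The CTCF core, the full NFI site, the RFX X-box, REST, MEF2 and ZNF143 motifs have longer consensus sequences. Some overlap: a CTCF core can contain the ZIC motif or E-box c, and the long SOX motif contains the short one.

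**Figure D5:**
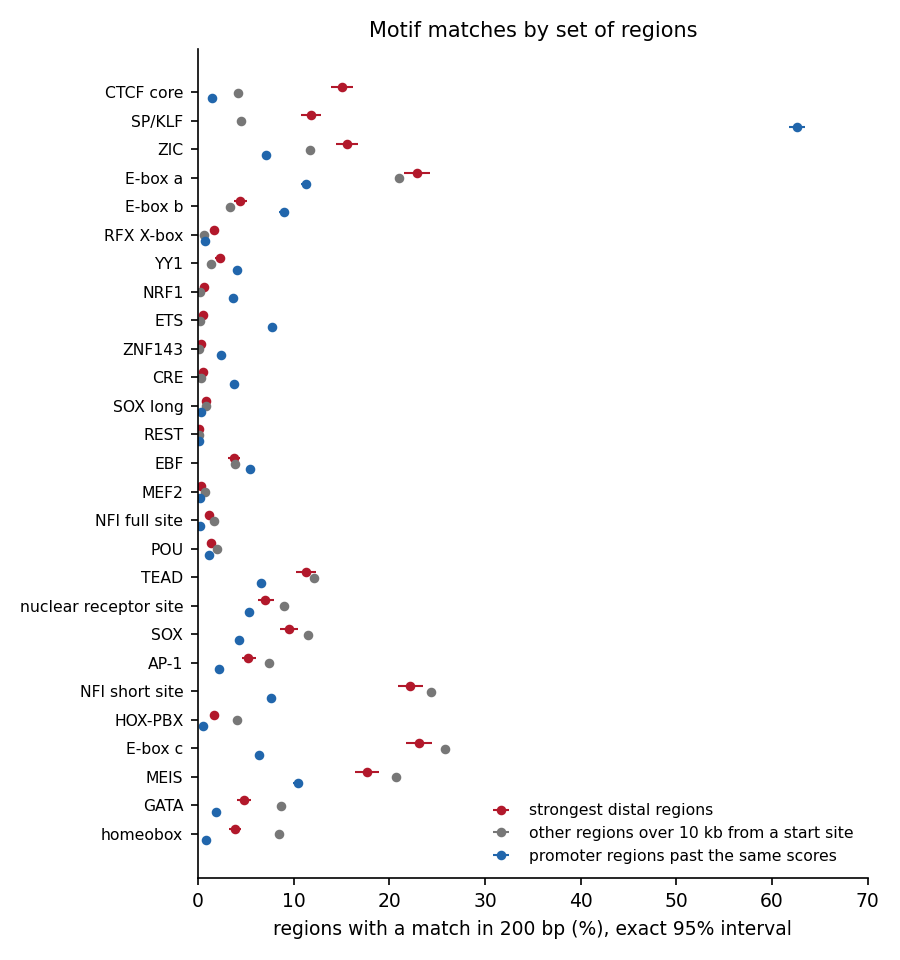
Share of regions (%) with each of 27 motifs in the 200 bp around the centre, with exact 95% intervals as bars, for the 3770 strongest distal, 54987 other distal and 13179 promoter regions past the same scores. Motifs are ordered by the difference between the strongest and the other distal regions, from CTCF at the top to homeobox at the bottom; E-box a, b and c are those spelled out in the text.

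Motifs of promoters were among those that were more common. The SP/KLF motif stood in 11.8% (10.8 to 12.9) of the strongest distal regions, 4.45% of the other distal and 62.6% of the promoter regions. NRF1, an activator of genes for mitochondrial function, had its motif in 0.637%, 0.164% and 3.70%, and ETS factors in 0.478%, 0.178% and 7.74%. YY1, a factor at promoters and enhancers, had its motif in 2.28%, 1.34% and 4.09%. For each of these the strongest distal regions stood between the other 2 sets. In flanks of the strongest regions the YY1 motif stood in 2.00% (1.54 to 2.56), which overlaps the 2.28% (1.83 to 2.81) of the regions themselves. In flanks of the other distal regions it stood in 1.56%. NRF1, ETS and YY1 were not compared at like GC content. GC content matters here: at 55 to 60% GC the SP/KLF motif stood in 11.9% (9.93 to 14.1) of the strongest and 10.6% (9.79 to 11.4) of the other distal regions, while at 60 to 65% the shares were 30.5% (25.6 to 35.7) and 22.3% (20.04 to 24.7).

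The X-box of RFX factors, which drive genes of cilia, did not follow the promoters. It stood in 62 of the strongest regions, or 1.65% (1.26 to 2.10), in 0.602% of the other distal regions (0.539 to 0.670) and in 0.721% of the promoter regions (0.584 to 0.881). The strongest regions had the higher share in all 5 GC bands, with intervals apart in the 3 bands from 45 to 60%. The ZIC motif, of factors that mark cerebellar granule neurons and dorsal neural tissue, stood in 15.5% against 11.7% of the other distal regions, and in 14.4% (13.2 to 15.7) against 11.3% (11.1 to 11.6) of the regions without a CTCF core. At like GC content the difference varied: the shares were 12.7% (10.4 to 15.2) and 10.5% (10.09 to 11.01) at 45 to 50% GC, 14.7% and 14.4% at 50 to 55%, 21.6% (19.1 to 24.4) and 18.99% (18.01 to 20.01) at 55 to 60%, and 18.3% and 20.1% at 60 to 65%.

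Motifs of several families of developmental factors were less common in the strongest regions. The homeobox motif stood in 3.82% (3.23 to 4.48) of the strongest and 8.46% (8.23 to 8.70) of the other distal regions, and HOX-PBX, the joint site of Hox proteins and their cofactors, in 1.72% and 4.07%. The GATA motif stood in 4.78% and 8.73%, below the 11.6% and 12.4% of the flanks; at like GC content its intervals were apart only at 45 to 50% GC (4.96% against 9.05%), and at 55 to 60% the shares were 4.18% and 3.72%. MEIS had 17.6% and 20.7%, AP-1 5.28% and 7.40%, and E-box c 23.1% (21.8 to 24.5) and 25.8% (25.5 to 26.2). E-box a, which proneural and other bHLH factors can also bind, went the other way, with 22.9% (21.5 to 24.2) and 20.98% (20.64 to 21.32). The NFI short site, of a family at work in glia and granule neurons, had 22.2% and 24.3%, both far above the 9.55% and 9.54% in the flanks. At like GC content the homeobox motif was scarcer in the strongest regions with intervals apart in the 3 bands from 40 to 55% (7.76% against 13.6% in the first), and the intervals overlapped from 55 to 65%. HOX-PBX, MEIS, AP-1, both E-boxes and the NFI short site were not compared at like GC content, so the part of base composition in their differences was not tested.

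The strongest distal regions lay nearer to start sites and to other open regions than the rest, but less often inside genes. Their median distance to a start site was 23258 bp, against 28997 bp, and 41.5% (39.9 to 43.1) were 10 to 20 kb away, against 32.63% (32.24 to 33.03). Beyond 200 kb were 25 regions, or 0.663%, against 1.81%. Introns held 40.03% (38.5 to 41.6) and intergenic DNA 56.4% (54.8 to 58.0), against 44.7% and 52.2% of the others. Another region of both libraries was found within 10 kb of 81.8% (80.5 to 83.0), against 68.4% (68.03 to 68.8), and the median number within 50 kb was 9 against 6. Repeats made up 6.18% of the bases of their windows and 8.72% of those of the other distal regions, against 25.03% and 25.1% in the flanks.

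Most gaps between neighbouring strongest regions were long, and some were short. The median gap between neighbours was 262.6 kb, and 434 of 3749 gaps (11.6%) were at most 10 kb, 148 of them at most 1 kb. No expected spacing was computed, so these values do not show whether the regions cluster. The strongest regions were nearest to the start of 2488 protein-coding genes. Of these genes 1723 had 1, 712 had 2 to 4 and 53 had 5 or more, the last holding 336 regions. Assignment to the nearest start does not show which gene a region acts on.

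The 12 regions of highest rank, by the mean of the within-library score percentiles, were mostly CpG-rich and intergenic. CpG-rich sequence was found in 10 of them, none held the CTCF core even with 1 mismatch, 8 were intergenic, 3 were in introns and 1 in an exon, and GC content ran from 54.5% to 73%. The first, at chr1:86487456-86487685, had scores of 147 and 137 and lay 39041 bp from the start of Ptma. The second, at chr12:29291076-29291245 (143 and 136), lay 237139 bp from the start of Myt1l, which represses non-neuronal genes in neurons, and it held the ZNF143 motif, found in 11 of the 3770. The region in the Creb3l1 intron had 142 and 137. All were high in both libraries, which the choice by score and rank had fixed.

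Next came a region at chr15:85634576-85634765 (143 and 135), 52103 bp from the start of Wnt7b, a Wnt ligand gene, where RefSeq places the start of the non-coding transcript D130051D11Rik. The highest replicate 1 score, 148 with 131 in replicate 2, was at chr7:38084996-38085145, 14224 bp from the start of Ccne1, the gene of cyclin E1, which drives entry into S phase. A region at chr6:128803156-128803325 (140 and 135), nearest to the natural killer receptor gene Klrb1c, lay in an intron of the gene model Gm44511. Others of the 12 lay 12977 bp from Prrc2b (143 and 130), 14384 bp from the zinc finger gene Zfp395 (138 and 137) and 26363 bp from Bahcc1, a gene of a chromatin protein (139 and 134). The 1 in an exon was at chr7:19320076-19320225 (142 and 129), in the non-coding D830036C21Rik, 10025 bp from the start of Fosb, an AP-1 subunit gene.

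The 4 regions farthest from any start site had replicate 1 scores of 98 to 111, against a median of 108 in the set. The farthest, at chr4:77558936-77559085, lay 600438 bp from the nearest start in an intron of Ptprd, a synaptic receptor phosphatase gene, and had 98 and 83. The others were at chr8:90001036-90001185, nearest to Tox3 (108 and 83), at chr5:40953016-40953165, nearest to the GTPase gene Rab28 (111 and 92), and at chr13:57595416-57595585 in an intron of the proteoglycan gene Spock1 (110 and 78).

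Several genes were nearest to many of the strongest regions. Calcoco1, a gene of an autophagy receptor of the endoplasmic reticulum, had 10 of its 20 distal regions among them, all intergenic, over 69.01 kb of chromosome 15, with scores of 99 to 128 and 75 to 108. The last of them ended 159.0 kb before Hoxc13, the first gene of the Hoxc cluster, a distance looked up after the values were seen. A pair at the end away from Hoxc13, at chr15:102693056-102693225 (106 and 97) and chr15:102693716-102693865 (128 and 107), shared hotspots of 2795 bp and 2332 bp. The other 8 lay between 102733336 and 102762065, and 1 of the 10 held the core.

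Nfib, a transcription factor gene of the NFI family with roles in glia and granule neurons, also had 10, of 49 distal regions, with 9 in introns and scores of 98 to 116 and 75 to 91. Castor2, of the arginine sensors of the mTORC1 pathway, had 9 of 50 over 620.2 kb, 2 of them with the core. Cstad had 9 of 18 over 154.8 kb, among them 3 between 30692296 and 30693465 on chromosome 2 in 1 hotspot of 2037 bp in replicate 1, the strongest with 143 and 121. Myt1l had 9 of 67 over 592.4 kb, with scores of 107 to 143 and 81 to 136 and 2 cores. At Calcoco1 and Cstad the strong regions equalled the other distal regions in number, and at Nfib, Castor2 and Myt1l they were fewer than the other distal regions; over all distal regions the share was 6.42%, and these genes were picked for their counts.

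Taking 11 gene lists as a whole, listed genes were less common next to the strongest regions than next to other distal regions, with intervals apart for only 2 of the lists, axon guidance and synapse. The 11 lists hold 426 genes. A listed gene stood at the nearest protein-coding start of 269 of the 3770 (7.14%, 6.33 to 8.004), against 10.03% (9.78 to 10.3) of the others. Of the distal regions nearest to a listed gene 4.65% were among the strongest, below the 6.42% of all distal regions. The shares of single lists follow; distal regions of 1 gene are not independent.

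Neural transcription factor genes had 100 regions at 42 of 92 genes, 2.65% (2.16 to 3.22) of the strongest against 3.14% of the other distal regions. The highest besides Myt1l were in an intron of Nfia, an NFI gene (132 and 116), and in an intron of Auts2, a neurodevelopmental gene (126 and 105), where 7 of 104 distal regions were among the strongest, a share close to the 6.42% of all distal regions. Radial glia and astrocyte genes had 24 at 12 of 28 genes, 0.637% against 0.560%, led by Ntrk2, the gene of the BDNF receptor (126 and 110), Qk, an RNA-binding protein gene (126 and 105), and Slc1a3, a glutamate transporter gene (124 and 103). The oligodendrocyte lineage had 7 at 6 of 22 genes, 0.186% against 0.207%: the Bcas1 region shown above (136 and 119), one near the myelin protein gene Opalin (124 and 93) and one near the transcription factor gene Olig1 (113 and 86). For these 3 lists the intervals of the strongest and the other regions overlapped.

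Axon guidance and synapse genes were less common at the strongest regions. Axon guidance and adhesion genes had 60 at 28 of 60 genes, 1.59% (1.22 to 2.04) against 2.97% (2.83 to 3.12), and synapse and channel genes 52 at 29 of 79, 1.38% (1.03 to 1.81) against 2.39% (2.26 to 2.52). The intervals were apart for both lists. Assigned by the gene body instead, the numbers were 64 and 58. Examples of the first were in introns of the cadherin gene Cdh4 (130 and 107), the adhesion gene Lsamp (128 and 108) and the ephrin receptor gene Ephb2 (137 and 98). Examples of the second were near the neuroligin gene Nlgn3 (127 and 118) and in introns of the potassium channel gene Kcnq3 (123 and 114) and the neurexin gene Nrxn3 (119 and 102), the last with a CTCF core. At Lsamp 8 of 83 distal regions were among the strongest, a share above the 6.42% of all distal regions and the 3.54% of its list.

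Cell cycle and housekeeping genes had 11 at 6 of 40 genes, 0.292% against 0.295%, with Ccne1 first, then the cyclin D1 gene Ccnd1 (122 and 101) and the tubulin gene Tuba1a (126 and 92). Genes of other cell types, in lists of 16 to 29 genes, were neighbours of few regions of either set. Of the distal regions nearest to them 4.35% to 5.66% were among the strongest, by list, against 3.54% to 7.23% for the lists above. Microglial genes had 3 at 3 of 18 genes (0.0796% against 0.102% of the other distal regions), namely C1qb, Irf8 and Ptprc, with replicate 1 scores of 98 to 109. Endothelial and mural genes had 6 at 4 of 23 genes (0.159% against 0.182%). Among them were 2 nearest to Cdh5, the higher-ranked of which lay 72740 bp from its start. Meningeal and fibroblast genes had 3 at 2 of 16 (0.0796% against 0.0982%). The strongest lay 165704 bp from the start of the proteoglycan gene Dcn (139 and 121). Erythroid and lymphoid genes had 2 at 2 of 22 (0.0531% against 0.0709%), of which the stronger was in an intron of the B cell factor gene Pax5 (123 and 93). Liver and muscle genes had 2 at 2 of 29 (0.0531% against 0.0800%), 32753 bp from the start of Hand2 and 199743 bp from that of Apob. For each of these lists the interval of the strongest regions took in the share of the other distal regions. In a bulk tissue, few cells with a region open and a weakly open region in many cells cannot be told apart.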

How the data were processed

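Peaks and hotspots were called by the authors for each library separately on mm10, per the labels and the deposited file lists; names of the peak caller, its settings and the read aligner were not given in the sources used here. The deposited peak tables give each peak a score, whose meaning and scaling are not stated and which was used only to rank and choose regions within a library. The deposited hotspot tables give a −log10 q, capped at 100. Which lists of regions were called thus depends on steps that cannot be examined here.

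Both peak lists were merged at 1 bp, and regions with a peak of each replicate were kept, without the mitochondrial chromosome and unplaced scaffolds. Start sites were the 5′ ends of all 141730 GENCODE vM21 transcripts. Genes named as nearest, those of the gene lists included, were assigned by start sites of protein-coding genes only. Windows of 200 bp around the centre were read from GRCm38. Copies elsewhere were searched with BLAST 2.17.0 (at least 95% identity over 80% of the region). Intervals came from SciPy 1.17.1, in Python 3.11.15 with pandas 2.3.3; the scripts were tested on simulated data. No test was run, since 1 group of 2 libraries holds no contrast.

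The members, gene lists and motifs were chosen with earlier results of these data known. All 429 entries of the gene lists matched the annotation; the lists come from textbook knowledge. Named are the 12 regions of highest rank (those on chromosome 18 without details), the 4 farthest from a start site, the 6 genes nearest to the most members and up to 3 genes per list, of which a few are not reported here; sequences are the highest-ranked by motif class, with 2 regions in annotated UTRs passed over. Alternatives were other distances, score thresholds, start site sets, motif stringency and each replicate alone.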

Additional observations from a re-analysis of the deposited data

How the results depend on the processing

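Of the values recomputed for the main results under the alternatives, 53 moved by less than their interval (or, for the number of regions, stayed within 1.5 times) and 21 moved by more. The number of regions was 2206 beyond 20 kb, 1081 with score thresholds of 110 and 90, and 6243 with 90 and 68. The share with the CTCF core ran from 13.11% to 16.91% when the regions were chosen on 1 replicate alone, and was 12.74% beyond 20 kb, 11.66% with thresholds of 110 and 90, and 39.42% with 1 mismatch allowed. It was above that of the other distal regions in all 6 sets of start sites, distances and chromosomes tried, the lowest being 12.74% against 3.593%. The median GC content was 52.00% to 53.50% with 1 replicate alone, 54.50% with 110 and 90, and 52.50% with 90 and 68. The share in introns was 39.35% to 41.65% with 1 replicate alone, 36.94% with protein-coding start sites only, 35.43% with 110 and 90, and 41.94% with RefSeq start sites added, an alternative chosen after seeing the data that left 3002 regions. The share with another region within 10 kb was 79.86% to 81.10% with 1 replicate alone, 80.42% beyond 20 kb, 83.13% beyond 5 kb, 84.27% with 110 and 90, and 80.14% with 90 and 68. The share with a copy elsewhere was 2.720% beyond 20 kb. The cause of these shifts was not tested. No paired analysis was possible because the replicates form 1 group. Unknown read depth limits what a score in 1 library can show.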

Other observations

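Few of the strongest distal regions lay on the X chromosome. They were 19 of its 1259 distal regions, or 1.51% (exact 95% interval 0.911 to 2.35), against 6.52% of the 57480 on autosomes, where the share ran from 4.90% on chromosome 10 to 7.77% on chromosome 11. Median scores of distal regions were 48 and 32 on X and 58 and 38 on autosomes in replicates 1 and 2. Promoter regions past the same scores were 37.5% on X (34.3 to 40.8) and 45.3% on autosomes (44.7 to 45.8). The CTCF core stood in 7.15% of all distal regions on X and 4.86% on autosomes, but in 1 of the 19 strongest on X. The tissue was pooled from both sexes in a ratio that is not given, and its part in these values was not tested.

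Of the strongest distal regions, 124 (3.29%, 2.74 to 3.91) matched another place in the reference, against 154 of 5499 other distal regions examined (2.80%, 2.38 to 3.27), and none matched mitochondrial DNA (0 of 3770, up to 0.0978%). The search took in every sequence of the reference, not the chromosomes alone. A region whose own locus is repeated on an extra scaffold would thus count as matched. Among regions with a core, 111 neighbouring pairs lay within 500 kb of each other: in 25 the cores faced each other, in 29 they faced away and in 57 they had the same strand.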
